A study of Mus musculus with 4 samples.

Results

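The proteasome genes of the mouse were followed across bone marrow cell types of WT and *Tet2* KO animals. They were taken by symbol: every gene whose name starts with Psm, one of the letters a to g and a digit, without processed pseudogenes, which gave 49 of the 18695 genes in the count matrices. Of the 49, 32 encode constitutive subunits of the 20S core or the 19S regulatory particle, 5 the subunits of the immunoproteasome and its activator (*Psmb8*, *Psmb9*, *Psmb10*, *Psme1*, *Psme2*), 7 assembly chaperones and 5 other factors. One of the last group, *Psmc3ip*, shares only the start of its symbol with the set, since its product is a recombination factor and no proteasome subunit.

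RNA of single cells was counted as unique molecular identifiers (UMIs), one per captured transcript, in 4 libraries. GMP (Lin- cKit+ Sca1- CD34+ CD16/32+) and Lin-/CD11b+ bone marrow cells were sorted from a *Tet2* KO mouse and from a WT mouse, with 1 library for each genotype and sort. The *Tet2* KO mouse carried *Tet2* fl/fl alleles and Mx1-Cre, an interferon-inducible Cre that acts in many blood and non-blood cells. The control, called WT here as in the study, was a *Tet2* fl/fl littermate without Mx1-Cre. Both received 4 doses of pI:pC at 12.5 ug/g, a double-stranded RNA mimic that drives Mx1-Cre through interferon. Per the study's methods, the mice were age-matched young adults of both sexes.

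The libraries held 1258 (WT GMP), 2719 (*Tet2* KO GMP), 1924 (WT Lin-/CD11b+) and 3068 (*Tet2* KO Lin-/CD11b+) cells, with medians between 10417 and 18713 UMIs per cell, and 4 to 8 cell barcodes were shared between any pair of them. Cells were placed in types by marker genes, and 6884 of 8969 cells fell into 1 of 13 classes. Among them, 978 were near the limit to a second class or near the lowest score allowed. Of the 13 classes, 9 had at least 50 cells in both libraries of a sort and were used: HSPC-like (stem and multipotent progenitor), granulocytic progenitor-like, monocytic progenitor-like, monocyte-like, neutrophil-like, pDC-like (plasmacytoid dendritic), cDC-like (conventional dendritic), basophil-like and plasma cell-like. In 13 Leiden clusters built without the proteasome genes, 74.2% of the typed cells kept their type, and the cDC-like cells joined the pDC-like cluster. The Lin-/CD11b+ libraries included 147 and 161 plasma cell-like cells in WT and *Tet2* KO. Levels are given as CPM, the UMIs of a gene per 1000000 UMIs of the same cells. *Tet2* itself measured 13.02 and 17.0 CPM in the WT and *Tet2* KO GMP libraries and 13.4 and 20.7 CPM in the Lin-/CD11b+ ones, so it was higher in both libraries labelled *Tet2* KO. A 3' tag lies outside the floxed exons and does not check the deletion. As each group was 1 library from 1 mouse, no difference has a replicate check and no test was run. The 95% intervals are exact Poisson or binomial intervals that cover counting error only, and mouse, library and genotype cannot be told apart.

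The proteasome is the main protease of the cytosol and nucleus. Its 20S core is a barrel in which rings of alpha subunits gate rings of beta subunits, some of which carry the active sites, and the 19S particle recognises ubiquitin chains, removes them and unfolds the substrate with a ring of ATPases. Under interferon, and constitutively in many blood cells, *Psmb8*, *Psmb9* and *Psmb10* replace the catalytic subunits *Psmb5*, *Psmb6* and *Psmb7*, while *Psme1* and *Psme2* form the PA28 cap, and the resulting immunoproteasome yields peptides suited to MHC class I.

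The immunoproteasome genes lie in a few places of the genome. In GENCODE vM21 on GRCm38, *Psmb8* is at chr17:34197721-34201454 on the plus strand and *Psmb9* at chr17:34181987-34187764 on the minus strand, inside the MHC and beside the peptide transporter genes *Tap1* and *Tap2*. The RefSeq start sites of *Psmb9* and *Tap1* are head to head with 225 bases between them, and exons of both genes overlap on opposite strands. *Psme1* (chr14:55578123-55581529, plus strand) and *Psme2* (chr14:55587441-55591113, minus strand) are neighbours, and *Psmb10* is at chr8:105935735-105938444 on the minus strand. RefSeq promoter windows (GRCm38.p6, 250 bases before to 50 after each start site) were found for 41 of the 49 members. The interferon-stimulated response element ISRE, searched on both strands as GAAA, 2 bases of any kind and GAAA, was in the windows of 5 members (*Psmb3*, *Psmd4*, *Psmd9*, *Psme1*, *Psmg4*) and in 3.44% of all 32851 windows. The STAT motif GAS, searched as TTCNNNGAA, which reads alike on both strands, was in those of 3 members (*Psmb8*, *Psmd2*, *Psmg1*) and in 8.3% of all windows. No member had both, and a match of letters is not a binding site. Printed here are the matches of *Psme1* and *Psmb8*, the immunoproteasome genes that had one, and of *Psmb3* and *Psmg4*, a constitutive subunit and a chaperone, on the strand of each gene, with the matching letters in capitals.
Psme1: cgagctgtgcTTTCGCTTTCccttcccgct
Psmb8: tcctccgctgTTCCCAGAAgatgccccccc
Psmb3: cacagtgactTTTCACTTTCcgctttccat
Psmg4: gcgcgcatctGAAAGTGAAAgagcgttccg
These stretches are chr14:55578493-55578522 (*Psme1*), chr17:34198088-34198117 (*Psmb8*), chr11:97703261-97703290 (*Psmb3*) and chr13:34162969-34162998 (*Psmg4*), each on the plus strand. The first base of the match is at position 10 relative to the RefSeq start site for *Psme1*, in the transcribed part, at -97 for *Psmb8*, at -163 for *Psmb3* and at 16 for *Psmg4*. The *Psmb8* match lies within the span that GENCODE gives the gene, whose longest isoform starts further upstream.

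By CPM, dendritic cells carried the most immunoproteasome RNA, and neutrophil-like and plasma cell-like cells the least. In the WT Lin-/CD11b+ library, where all 9 types were present, the 5 genes summed to 2493 CPM (95% interval 2385 to 2604) in cDC-like, 2006 CPM (1931 to 2083) in pDC-like and 1785 CPM (1728 to 1843) in HSPC-like cells. Monocyte-like cells had 1675 CPM and monocytic progenitor-like cells 1641 CPM, a pair whose intervals overlapped. Lower down came granulocytic progenitor-like cells with 1385 CPM and basophil-like cells with 989.6 CPM, and the lowest were plasma cell-like with 639.5 CPM and neutrophil-like with 633.4 CPM, which overlapped too.

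**Figure D1:**
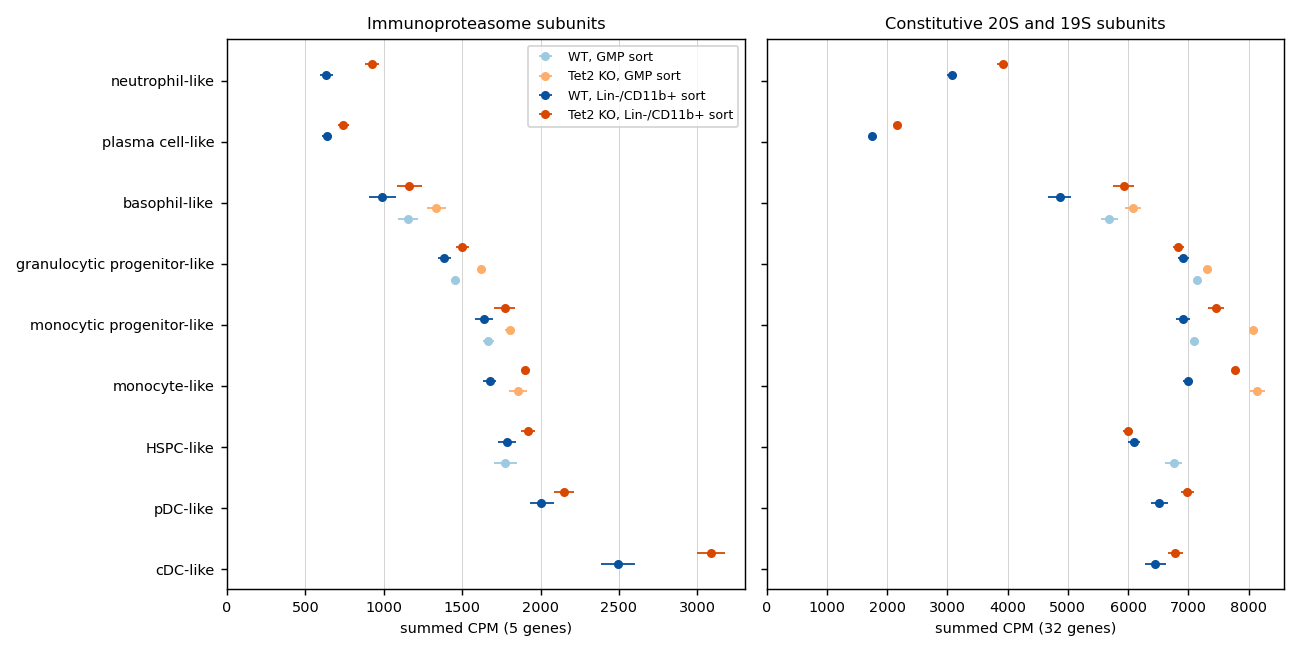
Summed CPM (x axis, linear from 0) of the 5 immunoproteasome subunits (left) and of the 32 constitutive subunits (right) by cell type (y axis), with 1 point per library and its exact Poisson 95% interval, WT in blue and *Tet2* KO in orange, GMP sort pale and Lin-/CD11b+ sort dark. The cDC-like cells, at the bottom, reach farthest in the left panel, with 2493 CPM in WT and 3085 CPM in *Tet2* KO, but not in the right one.

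The order depends on scaling where a few transcripts fill a cell. The 10 most abundant genes took 48.2% of neutrophil-like and 70.6% of plasma cell-like UMIs in WT, against 7.83% to 13.1% in the other 7 types of that library. TMM factors correct for such genes. With them, the immunoproteasome sum of plasma cell-like over granulocytic progenitor-like cells turned from a log2 ratio of -1.12 to 0.38. That of neutrophil-like cells moved from -1.13 to -0.48, that of cDC-like cells was 0.57 instead of 0.85 and that of pDC-like cells 0.17 instead of 0.53. Under these factors cDC-like cells stayed first, but plasma cell-like cells were not among the lowest and pDC-like cells did not stand above monocyte-like cells.

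The catalytic subunit *Psmb8*, the chymotrypsin-like member that replaces *Psmb5*, followed this order closely. Its level in WT Lin-/CD11b+ cells was 863 CPM in cDC-like, 774 CPM in pDC-like and 678 CPM in HSPC-like cells, and 184 CPM in neutrophil-like cells at the other end, a 4.68-fold range. *Psmb9*, which replaces *Psmb6*, ran from 397 CPM in cDC-like and 361 CPM in pDC-like to 109 CPM in neutrophil-like cells. For both genes the intervals of the cDC-like and pDC-like cells overlapped, and both stood apart from the 7 other types.

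*Psmb10*, which replaces *Psmb7*, had a different order. It was highest in monocyte-like cells at 191 CPM (177 to 204), with cDC-like cells at 182 CPM, and pDC-like cells had only 127 CPM (109 to 148), below the interval of monocytic progenitor-like cells at 169 CPM (151 to 188). The pDC-like cells were thus high for *Psmb8* and *Psmb9* but not for *Psmb10*. Among Psmb10 and Psmb7 UMIs together, *Psmb10* made up 35.5% in pDC-like, 44.5% in cDC-like and 45.9% in monocyte-like cells, and 63.1% in plasma cell-like cells.

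The PA28 genes *Psme1* and *Psme2*, whose products cap the core and open its gate, were both highest in cDC-like cells. *Psme1* measured 594 CPM (542 to 649) there, 428 CPM in HSPC-like, 384 CPM in pDC-like and 94.0 CPM in plasma cell-like cells. *Psme2* measured 457 CPM (412 to 507) in cDC-like, 359.6 CPM in pDC-like, 351 CPM in monocyte-like and 94.0 CPM in plasma cell-like cells. HSPC-like cells came next after cDC-like cells for *Psme1*, but for *Psme2* they had 258 CPM, below 4 other types. *Psme2* has a near-identical copy in the set, *Psme2b*, so counts of both are uncertain where reads could be split between them. *Psme2b* itself had 420 UMIs over all 4 libraries and between 1.5 and 6.1 CPM in each.

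Outside neutrophil-like and plasma cell-like cells, the constitutive catalytic genes spanned 1.41-fold (*Psmb5*), 1.63-fold (*Psmb7*) and 1.81-fold (*Psmb6*), against 2.12-fold to 3.35-fold for *Psmb8*, *Psmb9* and *Psmb10*. Over all 9 types the ranges overlapped, at 2.68-fold to 4.68-fold and 3.46-fold to 4.68-fold. *Psmb5* was highest in granulocytic progenitor-like cells at 307 CPM, with 227 CPM in cDC-like and 85.3 CPM in plasma cell-like cells. *Psmb6* lay between 286 and 315 CPM in 6 types and was lower in basophil-like (174 CPM), neutrophil-like (168 CPM) and plasma cell-like cells (117 CPM). *Psmb7* lay between 196 and 231 CPM in the same 6 types, with 141, 111 and 49.4 CPM in those last 3.

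The share of the immuno-type subunits among catalytic UMIs puts the genes on one scale within a cell and does not depend on the total of the library. The share compares cell types and says nothing of the number of protein subunits, since capture differs between genes. *Psmb8*, *Psmb9* and *Psmb10* made up 65.2% (63.0 to 67.4) of the UMIs of the 6 catalytic genes in WT cDC-like, 64.2% (61.8 to 66.5) in plasma cell-like and 62.3% (60.4 to 64.1) in pDC-like cells of the Lin-/CD11b+ sort. It was 59.6% in HSPC-like cells, 55.9% in monocyte-like and 55.6% in monocytic progenitor-like cells. Granulocytic progenitor-like and basophil-like cells lay near equal parts at 49.8% and 49.4%, and neutrophil-like cells had 45.7% (42.8 to 48.5).

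**Figure D2:**
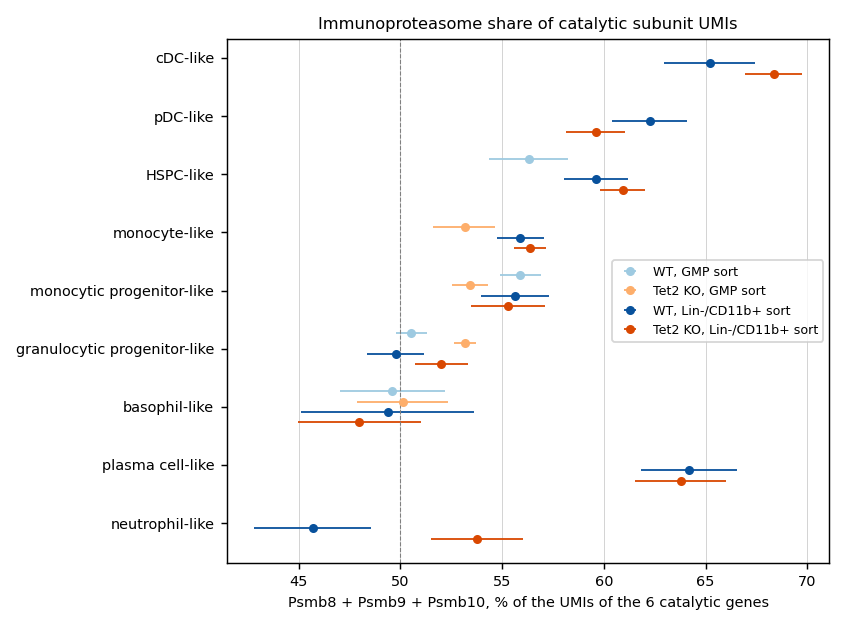
Percent of the UMIs of the 6 catalytic genes (x axis, from about 42 to 71) that came from *Psmb8*, *Psmb9* and *Psmb10*, by cell type (y axis), with exact binomial 95% intervals and 1 point per library, coloured as in the plot of sums. Plasma cell-like cells, low in the plot of sums, sit at 64.2% in WT, beside dendritic cells, and the dashed line marks equal parts.

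Plasma cell-like cells were therefore near the bottom by summed CPM and near the top by share. Of the UMIs of all immunoproteasome and constitutive subunits, the 5 immunoproteasome genes took 26.8% in plasma cell-like and 27.9% in cDC-like cells, and 16.7% in granulocytic progenitor-like cells. Relative to the summed constitutive subunits, *Psmb8* stood highest in plasma cell-like cells, at 13.8% of that sum, and so did *Psmb9* and *Psmb10* at 7.27% and 4.84%, while *Psme1* and *Psme2* stood highest in cDC-like cells at 9.21% and 7.09%.

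The 32 constitutive subunits followed another order, with progenitors and monocytes first. Their sum in the WT Lin-/CD11b+ library was 6999 CPM in monocyte-like, 6918 CPM in granulocytic progenitor-like and 6906 CPM in monocytic progenitor-like cells, whose intervals overlapped as neighbours. It was 6521 CPM in pDC-like, 6450 CPM in cDC-like and 6098 CPM in HSPC-like cells, and 4866 CPM in basophil-like, 3077 CPM in neutrophil-like and 1744 CPM in plasma cell-like cells. Genes of cell division and of ribosomes moved with these sums in part. The 10 G2/M genes summed to 268 CPM in plasma cell-like cells and to between 2332 and 5542 CPM in the others, and ribosomal protein genes to 85894 CPM in plasma cell-like, 104512 CPM in neutrophil-like and between 290132 and 399356 CPM in the other types. Their part in the order was not tested. With TMM factors monocyte-like over granulocytic progenitor-like cells turned from a log2 ratio of 0.02 to -0.07, so the first places are not settled.

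Within the 20S core, the alpha ring genes summed to 2831 CPM in monocyte-like and 2605 CPM in granulocytic progenitor-like cells. *Psma7*, an alpha ring subunit, carried much of the first value: it measured 1119 CPM in monocyte-like, 963 CPM in monocytic progenitor-like and 898 CPM in cDC-like cells but 679 CPM in granulocytic progenitor-like and 466 CPM in basophil-like cells. *Psma6*, from the same ring, was arranged the other way, with 332 CPM in basophil-like, 318 CPM in granulocytic progenitor-like and 212 CPM in monocyte-like cells. Genes of one ring thus had different orders at the RNA level. *Psma8*, the alpha subunit known from the testis, was rare, with 1026 UMIs in all. It measured 13.8 CPM in monocytic progenitor-like cells and no UMI in neutrophil-like cells, where a level of up to 1.92 CPM (3 counts) is allowed and the exact Poisson interval reaches 2.36 CPM.

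Among the beta ring genes that carry no active site, *Psmb1* had one of the smallest ranges of all members, 3.06-fold, from 511 CPM in monocyte-like to 167 CPM in plasma cell-like cells. *Psmb6*, with 2.68-fold, and *Psmf1*, which encodes the proteasome inhibitor PI31, with 2.60-fold, were the other members with the smallest ranges among those with at least 100 UMIs in the library. *Psmf1* was low throughout, from 27.1 CPM in HSPC-like to 10.4 CPM in plasma cell-like cells, with intervals that overlapped between all neighbours in the order.

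In the 19S particle, the 6 ATPase genes together ran from 728 CPM in granulocytic progenitor-like to 171 CPM in plasma cell-like cells, and the 11 non-ATPase genes from 1234 CPM in pDC-like to 308 CPM in plasma cell-like cells. *Psmd7*, a structural partner of the deubiquitinase *Psmd14*, was higher in granulocytic progenitor-like (226 CPM), HSPC-like (201 CPM) and basophil-like cells (183 CPM) than in cDC-like (119 CPM) and monocyte-like cells (124 CPM). *Psmd8*, a lid subunit, showed the reverse, with 267 CPM in cDC-like, 245 CPM in pDC-like and 239.5 CPM in monocyte-like cells, and 146 CPM in granulocytic progenitor-like and 107 CPM in basophil-like cells. *Psmd12*, also of the lid, had 81.2 CPM in granulocytic progenitor-like cells and 26.7 CPM in basophil-like cells. The second value rests on few UMIs, and basophil-like cells of the WT GMP library had 52.9 CPM.

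Among the chaperones that assemble the proteasome, the ranges over the 9 types ran from 3.97-fold (*Psmg4*) to 8.83-fold (*Psmg1*). *Psmg1* and *Psmg2* pair to start the alpha ring, and *Psmg3* and *Psmg4* form a second pair. Across types, *Psmg1* ran from 76.5 CPM in granulocytic progenitor-like to 8.66 CPM in plasma cell-like cells, an 8.83-fold range, and *Psmg3* from 76.5 to 9.53 CPM in the same types, 8.03-fold. Only *Psmc3ip*, no subunit, had a larger range among members with a UMI in every type, from 49.2 to 5.20 CPM, 9.47-fold. Without neutrophil-like and plasma cell-like cells, *Psmg1* spanned 3.09-fold and *Psmg3* 2.13-fold, less than the 3.97-fold of *Psme3*. The low end of *Psme3*, 15.3 CPM in basophil-like cells, rests on few UMIs, and those of the WT GMP library had 42.7 CPM. For *Psmg1* the low values included cDC-like cells at 24.8 CPM and monocyte-like cells at 29.5 CPM, while HSPC-like cells had 63.1 CPM. *Psmd9*, a chaperone of the ATPase ring, was highest in basophil-like cells at 74.5 CPM, against 37.3 to 47.5 CPM in the other progenitor and myeloid types outside neutrophil-like cells. Summed, the 7 chaperones had 474 CPM in granulocytic progenitor-like, 455 CPM in HSPC-like and 327 CPM in cDC-like cells, so cDC-like cells, highest for the immunoproteasome, were low for the assembly genes.

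**Figure D3:**
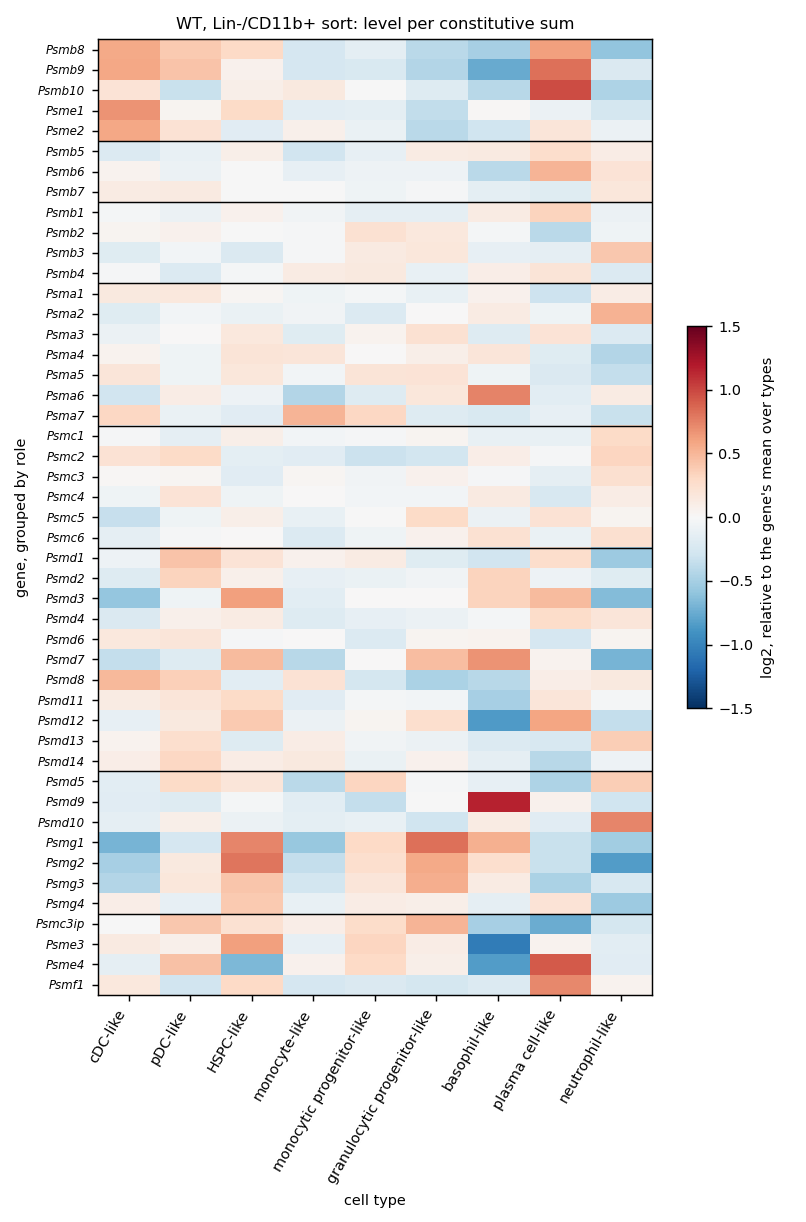
Level of each member in the WT Lin-/CD11b+ library divided by the summed constitutive subunits of the same cells, as log2 relative to the gene's mean over the 9 types (colour), for genes with at least 100 UMIs and a UMI in every type. Lines part the roles, from the top the immunoproteasome, catalytic, other beta, alpha, ATPase, non-ATPase, chaperone and other genes. *Psmb8* and *Psmb9* stand out in cDC-like and plasma cell-like columns, *Psmd9* in basophil-like and *Psmg1* in progenitor columns.

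The other caps were minor. *Psme3*, the nuclear PA28 gamma cap, ran from 60.7 CPM in HSPC-like to 11.7 CPM in plasma cell-like cells of the WT Lin-/CD11b+ library, with 42.7 to 73.5 CPM in the WT GMP library, 52.3 to 69.9 CPM in the *Tet2* KO GMP library and 14.5 to 69.2 CPM in the *Tet2* KO Lin-/CD11b+ library. *Psme4*, the PA200 cap, stayed between 5.73 and 21.3 CPM and *Psmf1* between 6.80 and 27.1 CPM over all types and libraries. For *Psme4* and *Psmf1* the intervals of neighbours in the order overlapped at every step in the WT Lin-/CD11b+ library.

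Cells given the same type in the GMP sort and in the Lin-/CD11b+ sort of the WT mouse could be compared for 4 types. They were not alike in all genes. HSPC-like cells had 1695 CPM of *Elane* in GMP and 330 CPM in Lin-/CD11b+. Their *Flt3* was 31.7 and 108 CPM, but *Cd34* 308 and 320 CPM. Basophil-like cells had 5397 and 17939 CPM of *Prss34*, but 535 and 520 CPM of *Ms4a2*. The part of such differences in the proteasome values was not tested. The immunoproteasome sum differed little in HSPC-like (1776 CPM in GMP, 1785 CPM in Lin-/CD11b+) and monocytic progenitor-like cells (1666 and 1641 CPM), with intervals of the log2 ratio from -0.08 to 0.07 and from -0.04 to 0.08, and 0.09 for HSPC-like cells when each cell was thinned to 5000 UMIs. It was higher in GMP for granulocytic progenitor-like cells (1458 against 1385 CPM, log2 ratio 0.07) and basophil-like cells (1155 against 989.6 CPM, 0.22). The constitutive sum was higher in GMP in all 4 types, by log2 ratios from 0.04 in monocytic progenitor-like to 0.23 in basophil-like cells, although the 0.05 of granulocytic progenitor-like cells turned to -0.01 with TMM factors. A call here means a CPM ratio of at least 1.2-fold with at least 100 UMIs over both libraries. Over the 4 types, 21.3% of all features were called higher in GMP and 10.8% lower, and of 174 member values 38 were higher and 3 lower, so the members' share on the higher side was at the background. Granulocytic progenitor-like cells had 4 of 48 higher and 1 lower beside backgrounds of 20.9% and 7.82%, and monocytic progenitor-like cells 5 of 47 higher and 2 lower beside 17.4% and 9.89%. The HSPC-like cells had the most members called after basophil-like ones, 13 of 45 beside a background of 21.5%, led by *Psmc5* (129 against 99.7 CPM), an ATPase, and *Psmd7* (259.9 against 201 CPM). Basophil-like cells of the WT Lin-/CD11b+ library also held plasma cell RNA, with 24382 CPM of *Igkc* against 1.86 CPM in GMP, and its part in their 16 of 34 higher members, beside a background of 33.9%, was not tested.

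The comparison of *Tet2* KO with WT asks whether loss of *Tet2* goes with other proteasome RNA levels in the same cell type and sort. It could be made in 12 cases, 3 in the GMP sort and 9 in the Lin-/CD11b+ sort, and the sorts share 1 mouse per genotype. The immunoproteasome sum was higher in *Tet2* KO in 12 of 12, and the interval lay above 0 each time, with log2 ratios from 0.10 to 0.54. The sum in the GMP sort went from 1458 CPM in WT to 1620 CPM in *Tet2* KO in granulocytic progenitor-like, from 1666 to 1805 CPM in monocytic progenitor-like and from 1155 to 1335 CPM in basophil-like cells. For the Lin-/CD11b+ sort it went from 2493 to 3085 CPM in cDC-like, from 1785 to 1920 CPM in HSPC-like, from 1675 to 1903 CPM in monocyte-like and from 633.4 to 923.8 CPM in neutrophil-like cells. The smallest of these 12 differences were 0.10 in pDC-like and HSPC-like cells, and the highest were 0.54 in neutrophil-like and 0.31 in cDC-like cells, all as log2 ratios. Type markers differed as well. From WT to *Tet2* KO, cDC-like cells had 193 and 538 CPM of *Naaa* and 47.1 and 9.01 CPM of *Ccr7*, but 140 and 136 CPM of *Cd209a*. Neutrophil-like cells had 59423 and 40668 CPM of *Camp*. The part of such marker differences in the sums was not tested.

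The genotype differences of the sums have to be read against all features. Over the 12 comparisons, 18.1% of 48782 feature values were called higher in *Tet2* KO and 14.2% lower. Of the 60 values of the 5 immunoproteasome genes, 15 were called higher (25%) and 0 lower, and of 359 constitutive values 70 were higher (19.5%) and 8 lower (2.23%). On the higher side the share was thus near the background, and on the lower side under it, in genes whose counts were larger than those of most features. In granulocytic progenitor-like cells of the GMP sort, for example, the tested members had a median of 3743 UMIs over both libraries and all features one of 504. The median log2 ratio of the 5 genes was above that of all features in 11 of 12 comparisons, that of the constitutive subunits in 10 of 12 and that of the chaperones in 6 of 12. The median of all features was itself shifted in neutrophil-like (0.26), plasma cell-like (0.22) and basophil-like cells (0.11) of the Lin-/CD11b+ sort.

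**Figure D4:**
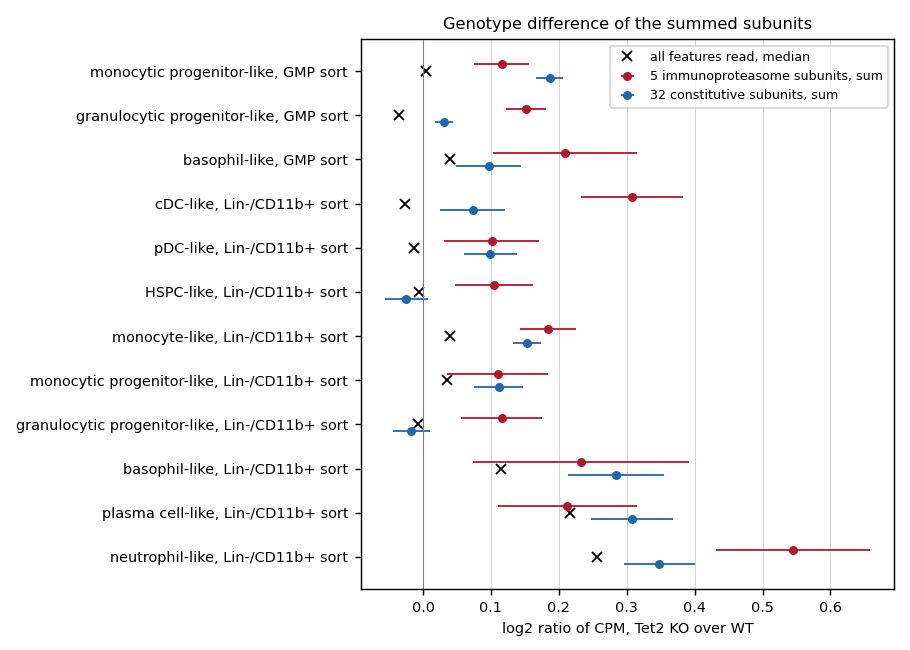
Genotype log2 ratio (x axis), *Tet2* KO against WT, for the summed 5 immunoproteasome subunits (red) and the summed 32 constitutive subunits (blue) with 95% intervals for counting error, and the median of all features with at least 100 UMIs (crosses), in 12 comparisons (y axis). Every red point lies right of 0, from 0.10 to 0.54, while blue points lie left of 0 in HSPC-like and granulocytic progenitor-like cells of the Lin-/CD11b+ sort.

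*Psmb9* was the immunoproteasome gene most often higher. In WT and *Tet2* KO it measured 262 and 320.2 CPM in HSPC-like, 397 and 548 CPM in cDC-like and 109 and 194 CPM in neutrophil-like cells of the Lin-/CD11b+ sort, with log2 ratios of 0.29, 0.47 and 0.83. Basophil-like cells showed it in both sorts, with 166 and 209 CPM in GMP and 118 and 169 CPM in Lin-/CD11b+ cells. Those were its 5 calls, and over the 12 comparisons its ratio was above 0 in all, with the interval above 0 in 8. Of all features, 14.6% were called higher in HSPC-like, 16.9% in cDC-like and 49.3% in neutrophil-like cells. In basophil-like cells 20.2% were called higher in GMP and 32.5% in Lin-/CD11b+. In pDC-like cells *Psmb9* was level at 361 and 367 CPM.

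*Psmb8* was higher at least 1.2-fold in 4 comparisons, as were 16.9% (cDC-like), 49.3% (neutrophil-like), 32.5% (basophil-like) and 43.8% (plasma cell-like) of all features. It went from 863 CPM in WT to 1111 CPM in *Tet2* KO in cDC-like cells (log2 ratio 0.36, interval 0.24 to 0.49), from 184 to 249 CPM in neutrophil-like, from 311 to 406 CPM in basophil-like and from 240.3 to 303 CPM in plasma cell-like cells, all in the Lin-/CD11b+ sort. In HSPC-like cells it was 678 and 675 CPM. The 2 progenitor types of the GMP sort had 507 and 541 CPM (granulocytic) and 570 and 604 CPM (monocytic), differences below the fold needed for a call though outside counting error.

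*Psmb10* was above 0 in all 12 comparisons and called in 3, in HSPC-like (159 CPM in WT, 197 CPM in *Tet2* KO), neutrophil-like (55.0 and 96.8 CPM) and basophil-like cells (89.8 and 114 CPM) of the Lin-/CD11b+ sort. The last of these had a wide interval, from -0.18 to 0.89. Of all features, 14.6%, 49.3% and 32.5% were called higher in these 3 comparisons. Cells of the HSPC-like class thus had *Psmb9* and *Psmb10* higher and *Psmb8* level.

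*Psme2* was above 0 in all 12 comparisons, *Psme1* in 11, but most of these were small. *Psme2* was called in basophil-like cells of the GMP sort (162 CPM in WT, 243 CPM in *Tet2* KO, log2 ratio 0.59, interval 0.32 to 0.86) and in neutrophil-like cells (138 and 184 CPM). *Psme1* was called in neutrophil-like cells alone (148 CPM in WT, a log2 ratio of 0.44). Of all features, 20.2% were called higher in GMP basophil-like and 49.3% in neutrophil-like cells. In cDC-like cells *Psme1* went from 594 to 678 CPM and *Psme2* from 457 to 530.4 CPM, with intervals above 0. *Psme1* in basophil-like cells of the Lin-/CD11b+ sort was the exception to the direction, at 283 CPM in WT and 262 CPM in *Tet2* KO.

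The constitutive counterparts were not lower in exchange. *Psmb5* was above 0 in 11 of 12 comparisons and called higher in 4: monocyte-like (232 to 280.1 CPM), pDC-like (246 to 304 CPM), basophil-like (218 to 315 CPM) and plasma cell-like cells (85.3 to 109 CPM) of the Lin-/CD11b+ sort. *Psmb6* was called in basophil-like cells of that sort (174 to 263 CPM) and in monocytic progenitor-like cells of the GMP sort (288 to 364 CPM), and *Psmb7* in plasma cell-like cells (49.4 to 63.9 CPM). In the Lin-/CD11b+ sort, 20.2% of all features were called higher in monocyte-like, 13.1% in pDC-like, 32.5% in basophil-like and 43.8% in plasma cell-like cells. In GMP monocytic progenitor-like cells the share was 14.2%. None of these 3 genes was called lower. The lowest value was *Psmb7* in granulocytic progenitor-like cells of the GMP sort, at 247 CPM in WT and 222 CPM in *Tet2* KO (log2 ratio -0.16, interval -0.23 to -0.08).

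Because both kinds were higher in many types, the catalytic share moved in few. In neutrophil-like cells it was 45.7% in WT and 53.8% (51.5 to 56.0) in *Tet2* KO, and in granulocytic progenitor-like cells of the GMP sort 50.5% and 53.2%, with intervals apart. Monocytic progenitor-like cells of the GMP sort went the other way, from 55.9% to 53.4%, also with intervals apart. In the other 9 comparisons the intervals overlapped, among them cDC-like (65.2% and 68.3%) and pDC-like cells (62.3% and 59.6%). Such an overlap does not by itself put a difference within counting error. The share of the 5 immunoproteasome genes among all subunits was higher with intervals apart in cDC-like (27.9% and 31.3%), HSPC-like (22.6% and 24.3%), neutrophil-like (17.1% and 19.1%) and granulocytic progenitor-like cells of both sorts (by 1.21 percentage points in GMP and 1.32 in Lin-/CD11b+). It was lower in monocytic progenitor-like cells of the GMP sort, by a difference of -0.74 points.

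The constitutive sum was higher in *Tet2* KO in 10 of 12 comparisons. Neutrophil-like (3077 to 3916 CPM), plasma cell-like (1744 to 2159 CPM) and basophil-like cells (4866 to 5926 CPM) of the Lin-/CD11b+ sort had the highest ratios, in the types where the median of all features was shifted too. With TMM factors the constitutive log2 ratio in neutrophil-like cells was 0.06 instead of 0.35 and in plasma cell-like cells 0.11 instead of 0.31, and the immunoproteasome ratios there were 0.25 instead of 0.54 and 0.02 instead of 0.21. Outside these types, monocyte-like (6999 to 7784 CPM) and monocytic progenitor-like cells (7103 to 8082 CPM in GMP, 6906 to 7462 CPM in Lin-/CD11b+) had higher sums, while HSPC-like (6098 and 5995 CPM) and granulocytic progenitor-like cells sorted as Lin-/CD11b+ (6918 and 6836 CPM) had intervals of the ratio that held 0. The granulocytic progenitor-like cells of the GMP sort had 7149 and 7305 CPM, a log2 ratio of 0.03.

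**Figure D5:**
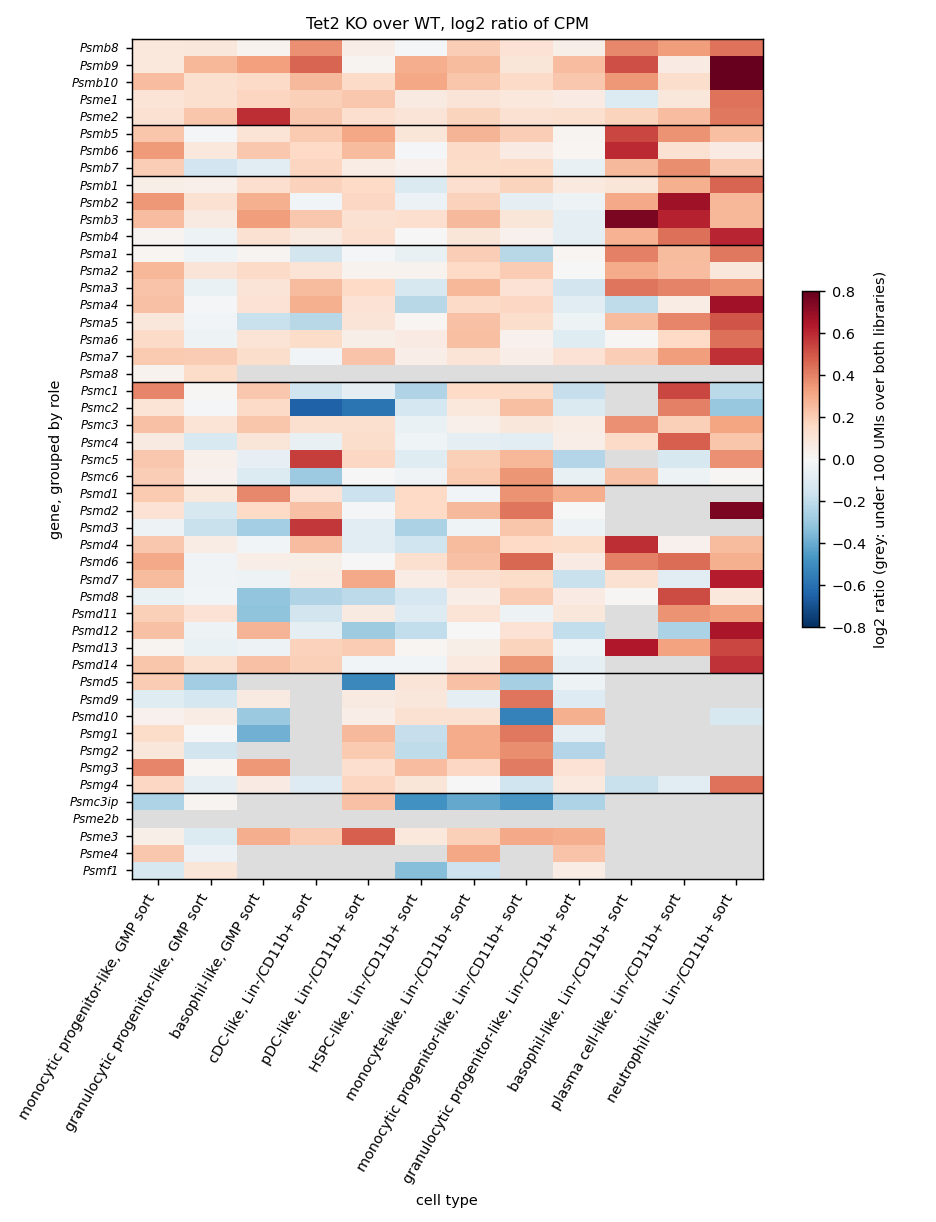
Colour gives the genotype log2 ratio, *Tet2* KO against WT, for each of the 49 members (y axis, grouped by role) in 12 comparisons (x axis), on a colour scale that ends at 0.8 in both directions, with members under 100 UMIs in grey. *Psmb9*, *Psmb10*, *Psme2* and *Psma2* are above 0 in each column. In the neutrophil-like column 25 of the 36 members read were called higher, beside 49.3% of all features.

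Counted by comparison, the neutrophil-like cells had 25 of 36 members called higher and 1 lower beside backgrounds of 49.3% and 8.59%, plasma cell-like cells 17 of 33 and 0 lower beside 43.8% and 7.5%, and basophil-like cells of the Lin-/CD11b+ sort 15 of 28 beside 32.5%. Monocytic progenitor-like cells had 11 of 45 in Lin-/CD11b+ beside 17.6% and 6 of 48 in GMP beside 14.2%. The counts were 8 of 42 in basophil-like cells of GMP beside 20.2%, 5 of 47 in monocyte-like beside 20.2%, 5 of 38 in cDC-like beside 16.9% (2 lower, beside 23.1%), 3 of 45 in pDC-like beside 13.1% (3 lower, beside 18.3%), 2 of 46 in HSPC-like beside 14.6%, and in granulocytic progenitor-like cells 3 of 47 in Lin-/CD11b+ beside 13.2% and 0 of 48 in GMP beside 9.42%. In basophil-like cells of GMP 5 members were called lower, beside 16.3%. Most types thus had a share of members called higher near or under the background. The shares above it came from neutrophil-like and plasma cell-like cells and from basophil-like and monocytic progenitor-like cells of the Lin-/CD11b+ sort.

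The members with the highest and lowest ratios differed by type. In granulocytic progenitor-like cells of the GMP sort *Psmb9*, *Psme2* and *Psma7* (659 to 759 CPM, log2 ratio 0.20) led, and *Psmd5*, a chaperone of the ATPase ring, was the single member called lower (42.6 to 35.1 CPM). In the same cells of the Lin-/CD11b+ sort *Psme3* (48.5 to 59.3 CPM), *Psmd1* (55.6 to 67.9 CPM), a scaffold of the 19S base, and *Psmd10* (34.4 to 41.8 CPM), the chaperone gankyrin, came first, each with an interval that held 0. At the low end there were *Psmc3ip*, *Psmc5* and *Psmg2*, from -0.25 to -0.23.

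Monocytic progenitor-like cells of the GMP sort were led by the ATPase *Psmc1* (96.5 to 127 CPM, 0.39), *Psmg3* (64.2 to 84.1 CPM, 0.39) and *Psmb2* (381 to 485 CPM, 0.35), and those of the Lin-/CD11b+ sort by *Psmd6* (88.3 to 121 CPM, 0.46), a lid subunit, *Psmd9* and *Psmd2*, the large ubiquitin-receptor scaffold of the base. At the low end stood *Psmc3ip*, *Psmf1* and *Psmd9* in GMP and *Psmd10* (39.3 to 27.0 CPM), *Psmc3ip* and *Psmd5* in Lin-/CD11b+ cells. *Psmd9* was thus among the lowest in one sort and among the highest in the other, with intervals that held 0 in both.

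HSPC-like cells had *Psmb10*, *Psmb9* and *Psmg3* first and *Psmc3ip* (35.6 to 25.4 CPM), *Psmf1* (27.1 to 21.4 CPM) and *Psmd3* (69.8 to 58.6 CPM) last. *Psmc3ip* was also lowest in monocyte-like cells, from 37.5 to 28.2 CPM, where *Psme4*, *Psmg1* and *Psmg2* came first at 0.31, 0.30 and 0.30 and *Psmf1* and *Psmc4* followed at the low end. Its median of -0.25 over the 7 comparisons in which it was read was the lowest of all members.

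In the dendritic types the ATPase *Psmc2* had the lowest ratio. It went from 107 to 68.2 CPM in cDC-like and from 114 to 75.9 CPM in pDC-like cells, log2 ratios of -0.64 and -0.58. The cDC-like cells had another ATPase, *Psmc5* (78.1 to 115 CPM), among their highest, with *Psmd3* (32.2 to 47.6 CPM) and *Psmb9*, and *Psmc6* and *Psmd8* among the lowest. The pDC-like cells had *Psme3* (44.6 to 62.1 CPM, 0.48), *Psmb5* and *Psmd7* first, and *Psmd5* and *Psmd12* beside *Psmc2* at the end. A single ring of ATPases thus held members on both sides.

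In the GMP sort, basophil-like cells had *Psme2*, *Psmd1* and *Psmg3* first and *Psmg1*, *Psmd11* and *Psmd8* last, from -0.38 to -0.31. Those of the Lin-/CD11b+ sort had *Psmb3* (256 to 431 CPM, 0.75), *Psmd13* (70.7 to 110.4 CPM) and *Psmb6* first and *Psma4*, *Psmg4* and *Psme1* last. *Psmb3* was among the first in plasma cell-like cells too, from 90.5 to 139 CPM, after *Psmb2* (70.1 to 112 CPM) and before *Psmc1*, with *Psmd12*, *Psmc5* and *Psmd7* last. In neutrophil-like cells *Psmb9*, *Psmb10* and *Psmd2* (26.9 to 45.2 CPM, 0.75) led, and *Psmc2*, *Psmc1* and *Psmd10* were below 0.

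Immunoglobulin and granulocyte transcripts differed between the libraries compared. *Igkc*, an immunoglobulin light chain, measured 24382 CPM in WT and 382 CPM in *Tet2* KO basophil-like cells sorted as Lin-/CD11b+, 10009 and 744 CPM in neutrophil-like and 559 and 5448 CPM in cDC-like cells. Leaving out the 15 cells with over 1% immunoglobulin UMIs, an alternative chosen after the data were seen, kept the sum of the 5 genes above WT in each comparison. Of the 82 results recomputed, 1 moved by more than its counting interval: the constitutive sum of WT basophil-like over granulocytic progenitor-like cells sorted as Lin-/CD11b+ went from a log2 ratio of -0.51 to -0.45. The neutrophil transcript *S100a8* measured 704 CPM in WT and 4261 CPM in *Tet2* KO granulocytic progenitor-like cells sorted as Lin-/CD11b+, 130 and 3434 CPM in basophil-like, 278 and 2644 CPM in monocyte-like, 87.9 and 823 CPM in plasma cell-like and 109 and 470 CPM in monocytic progenitor-like cells of that sort. In GMP it measured 305 and 1174 CPM in granulocytic and 17.6 and 169 CPM in monocytic progenitor-like cells. It was lower in *Tet2* KO in pDC-like (889 and 96.1 CPM) and neutrophil-like cells (189881 and 160300 CPM), and it differed by less than 1.2-fold in the other 3 comparisons. The immature granule transcript *Elane* measured 551 and 1106 CPM in neutrophil-like cells. Whether *S100a8* and *Elane* came from the typed cells themselves or from other cells was not tested, and neither was their part in the proteasome values.

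Across all 49 members, *Psmb9* had the highest median log2 ratio (0.26), then *Psmb3* (0.23) and *Psme4* (0.22, read in 4 comparisons), *Psmb10* (0.22), *Psmb5* (0.21) and *Psmg3* (0.21). The medians of *Psme2*, *Psme1* and *Psmb8* were 0.18, 0.11 and 0.10. *Psma2*, an alpha ring subunit, was above 0 in all 12 but small, with a median of 0.13 and 2 calls. Over the 12 comparisons, 18.1% of all feature values were called higher. Besides *Psmc3ip* and *Psmf1* (-0.13), medians under -0.03 were found for *Psmd3*, *Psmd5* and *Psmd12*.

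Other genes of the pathway were read from lists. Those that serve interferon-dependent transcription and peptide supply beside the immunoproteasome, 11 genes, had 6 of 7 read called higher in cDC-like cells (background of all features 16.9%), 6 of 10 in monocyte-like (20.2%) and in GMP granulocytic progenitor-like (9.42%), 6 of 6 in neutrophil-like (49.3%), 5 of 9 in HSPC-like (14.6%), 5 of 7 in Lin-/CD11b+ granulocytic progenitor-like (13.2%) and 5 of 6 in plasma cell-like cells (43.8%). They had 2 of 8 higher in pDC-like (13.1%), 2 of 9 in GMP monocytic progenitor-like (14.2%), 1 of 4 in GMP basophil-like (20.2%), 0 of 5 in Lin-/CD11b+ monocytic progenitor-like (17.6%) and 0 of 1 in Lin-/CD11b+ basophil-like cells (32.5%). Called lower were 3 in GMP monocytic progenitor-like cells (background 15.4%), 2 each in HSPC-like (12.5%), pDC-like (18.3%), Lin-/CD11b+ monocytic progenitor-like (11.6%) and GMP basophil-like cells (16.3%), 1 each in cDC-like (23.1%), monocyte-like (12.1%) and GMP granulocytic progenitor-like cells (16.1%) and 0 in the other 4 comparisons. *B2m*, the light chain of MHC class I, was above WT in each comparison. It passed 1.2-fold in granulocytic progenitor-like cells of both sorts (log2 ratios 0.36 and 0.35) and in GMP basophil-like cells (2730 to 3527 CPM). In the Lin-/CD11b+ sort it also did so in HSPC-like (2937 to 3597 CPM), cDC-like (2887 to 3593 CPM), neutrophil-like (1808 to 2557 CPM) and plasma cell-like cells (3668 to 5336 CPM). *Irf8*, a transcription factor of monocytes and dendritic cells, was higher in granulocytic progenitor-like cells of both sorts (0.70 and 0.56). It was lower in monocytic progenitor-like cells (-0.36 and -0.43), for which it was also a marker. *Tap2* was lower in monocytic progenitor-like cells of both sorts (-0.49 and -0.51). It was also lower at least 1.2-fold in HSPC-like (139.5 to 113.4 CPM) and pDC-like cells (112.9 to 74.4 CPM). In GMP it was lower in granulocytic progenitor-like (72.7 to 55.1 CPM) and basophil-like cells (99.4 to 66.9 CPM). The opposite held in cDC-like (59.5 to 80.5 CPM) and neutrophil-like cells (26.2 to 35.6 CPM). *Tap1*, named after its values were seen because it shares its start region with *Psmb9*, was called higher in 7 of the 8 types of the Lin-/CD11b+ sort in which it was read and in 0 of 3 in GMP, and went from 69.4 to 159 CPM in cDC-like cells. The background of these 7 types was 49.3% in neutrophil-like, 43.8% in plasma cell-like and 13.1% to 20.2% in the other cells. In GMP it was 9.42%, 14.2% and 20.2%.

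The assembly and associated genes had 4 of 4 called higher in Lin-/CD11b+ basophil-like cells (background 32.5%), 2 of 4 in plasma cell-like cells (43.8%) and at most 1 in each other comparison, and *Sem1*, a small lid subunit outside the symbol rule, was higher in basophil-like cells of both sorts (0.40 and 0.40). Of the 11 shuttle and segregase genes, 4 of 10 were higher and 1 lower in monocyte-like cells, beside backgrounds of 20.2% and 12.1%, and 0 of 10 higher and 3 lower in GMP monocytic progenitor-like cells, beside 14.2% and 15.4%. Both that were read were higher in neutrophil-like cells (background 49.3%), 2 were lower in GMP granulocytic progenitor-like (of 10, 16.1%) and in HSPC-like cells (of 8, 12.5%), and at most 1 was called in each of the other 7 comparisons. Of the 3 genes that regulate subunit transcription, 2 were called lower in GMP monocytic progenitor-like cells, beside a background of 15.4%. In Lin-/CD11b+ granulocytic progenitor-like cells 1 of 2 was higher (13.2%), and in monocyte-like cells 1 of 3 (20.2%). None was called in any other comparison, and so few genes give no usable share.

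Genes whose levels ran most like those of the 5 immunoproteasome genes over the 26 sums of a type in a library were ranked by Pearson's r of log2(CPM + 10) among 10747 genes. These sums share libraries, and the neutrophil-like and plasma cell-like sums, low for most genes, weigh heavily. Outside the 5 genes, the first 10 included *Ptpa* (r = 0.95), *Tm2d2*, *G3bp2*, *Fam98c*, *Lsm12*, *Nubp1*, *Ubac2*, *Mpp6* and *Pomp* (0.93). *Pomp* encodes the maturation factor of the 20S core and went from 646 CPM in cDC-like to 74.0 CPM in plasma cell-like cells of the WT Lin-/CD11b+ library. Over the 22 sums without neutrophil-like and plasma cell-like cells, an alternative chosen after the data were seen, *Tm2d2* and *Pomp* were among the first 3, each with r = 0.90, while *Ptpa* was at 0.87.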

How the data were processed

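Matrices of UMI counts from droplet single-cell RNA-seq were deposited with a table of cells. Per the labels, the authors aligned reads with Cell Ranger 3.1.0 to mm10 and filtered with Seurat. The methods give a minimum of 200 genes and 5000 UMIs per cell and under 5% mitochondrial counts, but 413 of the 8969 deposited cells exceeded 5%. The kit was given as v2 by the labels and as v3.1 by the design text, and cell numbers given by the study for 2 groups were interchanged against the deposited assignment, which was used. Library totals were 22890469 (WT GMP), 42561110 (*Tet2* KO GMP), 22681380 (WT Lin-/CD11b+) and 34024599 (*Tet2* KO Lin-/CD11b+) UMIs. Every cell row named a sample and every matrix row a gene.

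Cells were typed by the mean of the standardised log-normalised levels of marker lists (Python 3.11.15, scanpy 1.11.5). The list with the highest score was taken if the score was at least 0.3, at least 3 of its markers were detected and it led by 0.1. These limits were set after marker levels were seen, and 2085 cells (23.2%) stayed unassigned. UMIs were summed per library and type (at least 50 cells) and divided by all UMIs of that sum (CPM). With 1 library per group no test fitted, so values carry exact 95% Poisson, binomial or conditional binomial intervals, and features with at least 100 UMIs over both libraries were called at 1.2-fold. Scripts were tested on simulated data. No doublet caller was run, and leaving out the 5% of cells with most UMIs was an alternative, as were Leiden clusters, thinning to 5000 UMIs, mean CPM over cells, TMM factors (edgeR 4.0.16, R 4.3.3, for scaling only), no minimum, a 1.5-fold call, cells under 5% mitochondrial counts and the other sort. Members and lists were chosen with earlier results of these data known. Named were the 5 immunoproteasome genes, *Psmb5*, *Psmb6*, *Psmb7*, *Psme3*, *Psme4* and *Psmf1*, for each genotype comparison the 3 members with the highest and the 3 with the lowest ratio, the members with the largest and smallest range over types, the 10 genes most alike, and pathway genes called in both sorts in the same direction, and others were added where a role is described. *Ecpas* and *Paaf1* of the pathway lists and the marker *Rhag* were not analysed here. Some genes that this rule names, and the list of ubiquitin genes, are not reported here. Promoter sequences are RefSeq's.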

Additional observations from a re-analysis of the deposited data

Results flagged for a closer look

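Some values of the *Tet2* KO comparison were above 0 in granulocytic progenitor-like cells of both sorts and below 0 in monocytic progenitor-like cells of both sorts. Not every one was beyond counting error, and the difference between these types was not tested. The immunoproteasome share of catalytic UMIs was higher in *Tet2* KO by 2.65 percentage points in GMP and 2.24 in Lin-/CD11b+ granulocytic progenitor-like cells, and differed by -2.48 and -0.32 points in monocytic progenitor-like cells, where the second value lay well within counting error. The share of the 5 immunoproteasome genes among all subunits differed by 1.21 and 1.32 points in granulocytic and by -0.74 and -0.016 points in monocytic progenitor-like cells of GMP and Lin-/CD11b+. The last value was level within counting error, at 19.19% in *Tet2* KO and 19.20% in WT. *Irf8* had log2 ratios of 0.70 and 0.56 in granulocytic and of -0.36 and -0.43 in monocytic progenitor-like cells, and it is a marker that placed cells in the second class.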

How the results depend on the processing

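Under the alternatives, 598 values were recomputed for 82 results, of which 512 were classed as the same, 83 as moved and 3 as reversed. A value with a counting interval was the same if it moved by less than that interval. Counts of calls have no such interval and were classed by the change in the count. Reversed means a changed sign where the interval of the main value kept to a single sign. Other changes of sign are among the same or moved values. The immunoproteasome sum stayed higher in *Tet2* KO in each comparison and alternative that gave a value. Leiden clusters gave none for cDC-like cells, which joined the pDC-like cluster. No paired analysis was possible because each group was 1 library and all carried the same replicate number, so the number pairs no replicates. Leaving out cells over 5% mitochondrial counts moved none of the 82. What depth limits is the rare members: *Psme2b* reached 100 UMIs in no comparison. The cause of the changes below was not tested.

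Between cell types of WT Lin-/CD11b+ cells, all over granulocytic progenitor-like cells, the immunoproteasome log2 ratio with TMM factors was -0.48 for neutrophil-like, 0.57 for cDC-like and, reversed, 0.38 for plasma cell-like cells, and for neutrophil-like cells it was -1.30 with Leiden clusters and -1.23 as a mean over cells. The constitutive ratio was -0.52 (TMM), -1.28 (Leiden), -1.29 (thinned) and -1.24 (mean over cells) for neutrophil-like and -0.38 (TMM) for cDC-like cells. In *Tet2* KO over WT, TMM factors gave immunoproteasome log2 ratios of 0.20 in GMP granulocytic progenitor-like, 0.25 in neutrophil-like and 0.017 in plasma cell-like cells, and constitutive ratios of 0.082 in GMP granulocytic progenitor-like, 0.059 in Lin-/CD11b+ monocytic progenitor-like, 0.12 in monocyte-like, 0.058 in neutrophil-like, 0.14 in cDC-like and 0.11 in plasma cell-like cells. Leiden clusters gave immunoproteasome ratios of 0.13 in monocyte-like and 0.26 in pDC-like cells, and constitutive ratios of 0.017 in GMP granulocytic progenitor-like, 0.15 in GMP monocytic progenitor-like, 0.18 in monocyte-like and 0.27 in neutrophil-like cells. Thinning gave constitutive ratios of 0.17 in GMP monocytic progenitor-like, 0.15 in GMP basophil-like and -0.048 in Lin-/CD11b+ granulocytic progenitor-like cells, and without the cells with most UMIs that of plasma cell-like cells was 0.44. The same type in the other sort gave 0.12 for the immunoproteasome in granulocytic progenitor-like cells and, for the constitutive sum, -0.017 in granulocytic (reversed), 0.11 in monocytic progenitor-like and 0.28 in basophil-like cells. Between sorts of WT, the constitutive ratio of granulocytic progenitor-like cells was reversed to -0.0052 with TMM factors.

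No share of all features was computed for the settings of this paragraph, so its counts are not a result about the members. At 1.5-fold, 3 of 60 immunoproteasome values were higher in *Tet2* KO, and of 359 constitutive values 12 were higher and 1 lower. Thinned, 1 immunoproteasome value was lower, and constitutive values lower numbered 14 (thinned), 13 (TMM) and 15 (no minimum, 1 CPM added). For GMP over Lin-/CD11b+ in WT, immunoproteasome values higher numbered 0 at 1.5-fold, and lower ones 2 (thinned), 1 (mean over cells) and 1 (TMM). Constitutive values higher numbered 2 at 1.5-fold, and lower ones 2 without the cells with most UMIs, with Leiden clusters, as a mean over cells, with TMM factors and with no minimum, and 0 at 1.5-fold.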

Other observations

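Lymphoid classes stood apart from the types compared, and most had fewer than 50 cells in one of the libraries. In the *Tet2* KO Lin-/CD11b+ library, 86 T/NK-like cells had 2101 CPM (2009 to 2196) of the 5 immunoproteasome genes, and 61.6% of their catalytic UMIs came from *Psmb8*, *Psmb9* and *Psmb10*. The 20 T/NK-like cells of the WT library had 1715 CPM (1556 to 1885), and an exact binomial interval of that share from 55.2% to 64.7%. B cell-like cells had 1506 CPM (1389 to 1630) in WT, from 42 cells, and 1710 CPM (1622 to 1801) in *Tet2* KO, from 82 cells, with shares of 59.8% and 60.1%. The 49 HSPC-like cells of the *Tet2* KO GMP library had 1866 CPM (1770 to 1966), and the 29 monocyte-like cells of the WT GMP library 1588 CPM (1485 to 1696).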
